A study of Arabidopsis thaliana with 36 samples.

Results

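The comparison is between Arabidopsis thaliana seedlings labelled an3 and seedlings labelled brd1213, 3 RNA-seq libraries each, so 6 of the 36 libraries of a series on chromatin remodelling mutants. The members were taken from the genotype in the labels. The an3 seedlings carry the genotype an3-/-, the brd1213 seedlings are the triple mutant brd1-/-brd2-/-brd13-/-, and the 3 wild-type libraries, labelled wt, serve as the outside reference. All were whole seedlings, 12 days old, raised on MS plates under days of 16 h at 23 °C and nights of 8 h at 22 °C. The labels give neither the alleles nor the number of seedlings in a library, and do not say whether replicates came from separate plates, so the p-values measure the spread between these libraries, which may in part be technical.

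AN3, also called GIF1, is a transcription coactivator that binds GRF transcription factors, promotes cell proliferation in young leaves, and is known to associate with SWI/SNF complexes, which move or evict nucleosomes with the energy of ATP. BRD1, BRD2 and BRD13 are bromodomain proteins of BAS, the SWI/SNF complex built around the ATPase BRM, and bromodomains bind acetylated histones. The question put to the data was how far the transcriptome of the coactivator mutant follows that of the BAS mutant.

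Levels are CPM, the deposited value scaled as counts per 1e6 reads of a common library size, and 1 CPM stands for about 23.1 reads. Libraries of the series held 21070583 to 23761910 reads, and within each of the 3 genotypes the pairwise Pearson r of log2 values, taken across genes, lay between 0.983 and 0.9888. Photosynthesis genes, which mark green seedlings, summed to 98800 to 110000 CPM in an3, 92500 to 96200 CPM in brd1213 and 77400 to 113000 CPM in wt. Of the wt libraries, replicate 3 stood apart in that its 50 most abundant genes took 16.5% of the values, against 20.6% and 20.3% in the other wt libraries, 19% to 20.3% in an3 and 18.3% to 19.1% in brd1213. A gene is called below where limma's moderated test on log2(value + 1), fitted to all 36 libraries, gave a Benjamini-Hochberg adjusted p under 0.05 over the 23297 genes tested. Fold changes on that scale understate the change of low genes.

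The mutated genes were read first. BRD13 had 79.5, 70.3 and 76.8 CPM in the an3 libraries, 0.23, 0.0418 and 0.0858 CPM in brd1213, and 85, 76.5 and 78.2 CPM in wt. BRD2 averaged 11.2 CPM in an3, 6.51 CPM in brd1213 and 14 CPM in wt, and fell in brd1213 relative to wt (log2 difference -1.12 ± 0.12 SE, limma adjusted p = 2.651e-08). BRD1 reads went the other way, with 34.6, 29.5 and 33.5 CPM in an3, 60.2, 76.2 and 68.9 CPM in brd1213 and 36.3, 35.6 and 31 CPM in wt. BRD13 therefore fits the brd1213 label, and the RNA of BRD1 does not show a loss. AN3 itself had 7.08, 6.39 and 6.49 CPM in the libraries labelled an3, 7.03, 11.6 and 6.1 CPM in brd1213 and 4.82, 6.3 and 8.52 CPM in wt. The AN3 level did not separate the an3 libraries from wt (log2 difference 0.06, 95% interval -0.33 to 0.45), so it does not check that label, and an3 stands below for the libraries labelled an3. Of the 23 SWI/SNF subunit genes tested, 2 were higher and 1 lower in an3 than in brd1213, and these 3 were BRD13, BRD2 and BRD1. SWI3D, a scaffold subunit, fell in both mutants, by 0.40 in an3 and by 0.30 in brd1213 on the log2 scale relative to wt (limma adjusted p = 0.00276 and 0.01619), and the call in brd1213 was lost without brd1213 replicate 2 or 3 or wt replicate 1 (adjusted p = 0.06798, 0.06814 and 0.06333). A lower SWI3D mean was not particular to the pair. It lay below wt (43.1 CPM) in 9 of the 9 other mutants, from 41.8 CPM in syd to 7.65 CPM in swi3d.

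Between an3 and brd1213, 3518 genes were called, which is 15.1% of those tested: 1929 were higher in an3 (8.28%) and 1589 lower (6.82%). With libraries scaled by their totals the split turned to 1516 higher and 1936 lower, and leaving out brd1213 replicate 2 gave 2342 calls, of which 1024 were lower; without an3 replicate 3, 1052 were lower. At least a 2-fold difference as well was seen in 818 genes (3.51%). The 95% interval of the difference lay within 1 log2 unit of 0 for 17229 genes (74%) and within 0.5 for 11054 genes (47.4%). Relative to wt, an3 had 2509 calls (10.8%), with 1171 genes up (5.03%) and 1338 down (5.74%), and brd1213 had 4621 calls (19.8%), with 2150 up (9.23%) and 2471 down (10.6%). With totals as scaling 32.1% of the an3 calls were rises, against 46.7% in the fit as reported. These 2 sets of calls share the wt libraries, so their values are given side by side and only the direct contrast tests how the mutants differ.

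The place of the pair in the series was described by the number of genes called between genotypes. For an3 the number was lowest against wt, and among mutants it was lowest against brd1213 with 3518, followed by swi3d with 3878 (16.6%). It reached 11406 against brm (49%) and 13566 against pms2ab (58.2%). For brd1213, brip12, a mutant of the BAS subunits BRIP1 and BRIP2, gave the lowest number, 712 (3.06%), an3 came next with 3518, then wt with 4621 and swi3d with 6098 (26.2%). Counts of this kind share libraries and depend on the spread within each genotype.

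**Figure D1:**
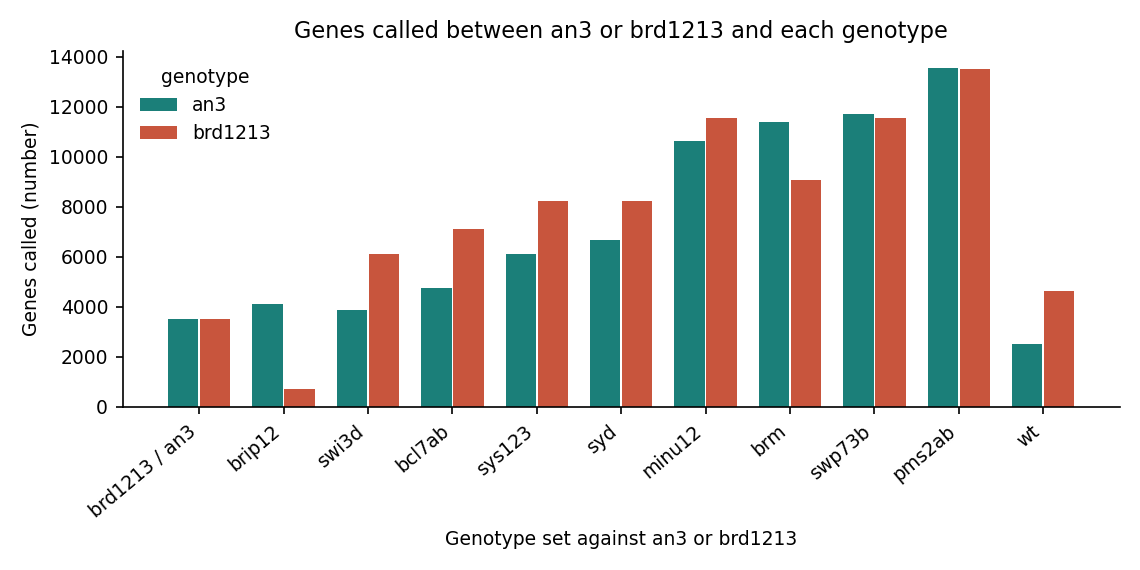
Number of genes called between an3 (left bar of each pair) or brd1213 (right bar) and the genotype named on the horizontal axis; the first pair shows the an3 to brd1213 contrast for both. For an3 the bar against brd1213 (3518) is the lowest among mutants, and for brd1213 the bar against brip12 (712) is.

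Abscisic acid perception genes changed in both mutants relative to wt, and none was called between them. Abscisic acid, the hormone of drought and cold responses, is bound by PYR/PYL receptors, which then inhibit the clade A PP2C phosphatases that hold the signal off. Of 18 such genes, 7 rose and 8 fell in an3 relative to wt (83.3% called), and 7 rose and 9 fell in brd1213 (88.9%). Between an3 and brd1213, 0 of the 18 were called by limma (5 at an unadjusted p under 0.05), 0 by edgeR and 1 by DESeq2. The intervals were not equally tight: 13 of the 18 lay within 1 log2 unit of 0, and the widest reached -2.41. In fits to the 2 genotypes alone ABI2, AHG3 and HAI1 were called lower in an3 (limma adjusted p = 0.0473, 0.0055 and 0.0248), and PYL6 was called higher without an3 replicate 3 (limma adjusted p = 0.0243) and by DESeq2 (adjusted p = 0.041).

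The phosphatase HAI1 had 1.6, 1.41 and 1.48 CPM in an3, 3.22, 2.46 and 2.58 CPM in brd1213 and 78.9, 73.7 and 63 CPM in wt. Every library of both mutants lay far below every wt library, and the an3 libraries lay below those of brd1213 without a call (log2 difference -0.85 ± 0.40 SE, limma adjusted p = 0.1515). HAI2, its close relative, had 0.73, 0.486 and 0.78 CPM in an3, 1.54, 1.02 and 1.55 CPM in brd1213 and 38.7, 55.4 and 32.3 CPM in wt. AHG3 averaged 28.4 ± 1.89 CPM in an3, 43.2 ± 3.22 CPM in brd1213 and 229 ± 16.7 CPM in wt (SD, n = 3 each). ABI1, the phosphatase through which the hormone's signalling was first traced genetically, averaged 52.8 ± 4.08 CPM in an3, 57.8 ± 5.86 CPM in brd1213 and 199 ± 11.1 CPM in wt (SD, n = 3 each), and the 95% interval between the mutants ran from -0.61 to 0.36 log2. The receptors PYL4 and PYL5 moved the other way from wt. PYL4 had 147, 203 and 117 CPM in an3, 163, 156 and 142 CPM in brd1213 and 47.5, 43.9 and 44.8 CPM in wt, with a difference between the mutants of -0.02 log2 (95% interval -0.40 to 0.36). PYL5 averaged 46.4 CPM in an3, 55.4 CPM in brd1213 and 15.5 CPM in wt.

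The low level of these genes was not particular to the pair. HAI1, AHG3, NCED3 and CBF1 had a mean below that of wt in 9 of the 9 other mutants, and HAI2, ABI1, PUB19 and DREB1A in 8 of 9. The exception for the last 4 genes was syd, where PUB19 averaged 148 CPM and HAI2 43.1 CPM. Some of the means below wt were close to it. HAI1 averaged 70.2 CPM in syd and 66.3 CPM in sys123, against 71.9 CPM in wt. In syd AHG3 averaged 183 CPM and CBF1 19.9 CPM, against 229 and 24.4 CPM in wt.

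Of 24 genes of dehydration and cold tested, 16 fell in an3 (66.7%) and 15 in brd1213 (62.5%) relative to wt, with no rises. Over all genes 10.8% and 19.8% were called. Between the mutants 5 were lower and none higher in an3 (20.8% called, beside 15.1% over all genes). That last count was 2 without an3 replicate 2 or without brd1213 replicate 3, and 3 without brd1213 replicate 1. PUB19, a U-box ubiquitin ligase of stress responses, had 3.25, 3.3 and 3.82 CPM in an3, 2.7, 1.52 and 2.54 CPM in brd1213 and 125, 119 and 106 CPM in wt. CBF1, a cold-response transcription factor, had 0.922, 1.36 and 1.7 CPM in an3, 0.61, 0.337 and 1.08 CPM in brd1213 and 26.7, 24 and 22.5 CPM in wt. The mutants overlapped in CBF1, and in PUB19 the an3 libraries lay above those of brd1213, and neither gene was called between them (limma adjusted p = 0.1432 and 0.5249). CBF1, CBF2 and DREB1A are tandem copies, and how reads shared by near-identical copies were counted is not stated.

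LTI65, a dehydration-induced gene also called RD29B, had the largest called difference of this group. It had 2.23, 1.28 and 2.25 CPM in an3, 11.3, 10.2 and 10.7 CPM in brd1213 and 39.8, 54.1 and 25.2 CPM in wt. The 3 genotypes did not overlap, and an3 lay below brd1213 by 2.50 ± 0.52 SE on the log2 scale (log2 difference -2.50, limma adjusted p = 0.001122). DREB2A, a transcription factor of drought and heat responses, had 5.58, 5.02 and 6.76 CPM in an3, against 14.5, 16.3 and 12.2 CPM in brd1213 and 22.7, 13.3 and 15 CPM in wt. It fell in an3 relative to wt (log2 difference -1.52, limma adjusted p = 0.000309) and was not called in brd1213 (-0.22, limma adjusted p = 0.6486), and the direct contrast was called (-1.30 ± 0.28 SE, limma adjusted p = 0.001615). The other called genes were COR15B, KIN2 and MYB47, each with limma adjusted p between 0.01928 and 0.03538, and each lost its call without an3 replicate 2 (adjusted p = 0.1684, 0.08571 and 0.2385). COR15B and KIN2 also lost it without brd1213 replicate 3, COR15B without brd1213 replicate 1, and MYB47 without any library but an3 replicate 1, by edgeR (adjusted p = 0.1152) and in the fit to the 2 genotypes alone (limma adjusted p = 0.1087).

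The enzymes that make and break abscisic acid were divided. NCED3, the rate-limiting step of synthesis under stress, had 21.2, 16.9 and 18.6 CPM in an3, 8.34, 9.46 and 12.3 CPM in brd1213 and 176, 177 and 121 CPM in wt. The an3 libraries lay above those of brd1213, and the difference was not called (0.92 ± 0.40 SE, limma adjusted p = 0.1177), although it was in the fit to the 2 genotypes alone (adjusted p = 0.01122). CYP707A2 and CYP707A3, hydroxylases that inactivate the hormone, were lower in an3 than in brd1213. CYP707A2 had 2.38, 2.12 and 2.93 CPM in an3, 5.48, 5.47 and 5.93 CPM in brd1213 and 7.78, 7.93 and 9.24 CPM in wt (an3 minus brd1213 -1.18 ± 0.20 SE, limma adjusted p = 0.000119). CYP707A3 had 7.04, 7.88 and 8.25 CPM in an3, 18.1, 16.5 and 15.8 CPM in brd1213 and 17.7, 14.1 and 14 CPM in wt (-1.12 ± 0.28 SE, limma adjusted p = 0.006487). In CYP707A3 brd1213 overlapped wt and an3 did not. Over the 11 genes of this list, 1 was higher and 2 were lower in an3 than in brd1213 (27.3% called, beside 15.1% over all genes). The higher one was ABA2. Its call was lost without an3 replicate 1 or 2 or brd1213 replicate 1 or 3 (limma adjusted p between 0.08804 and 0.1141). It was also lost with libraries scaled by their totals and in the fit to the 2 genotypes alone (limma adjusted p = 0.0758 and 0.1013).

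**Figure D2:**
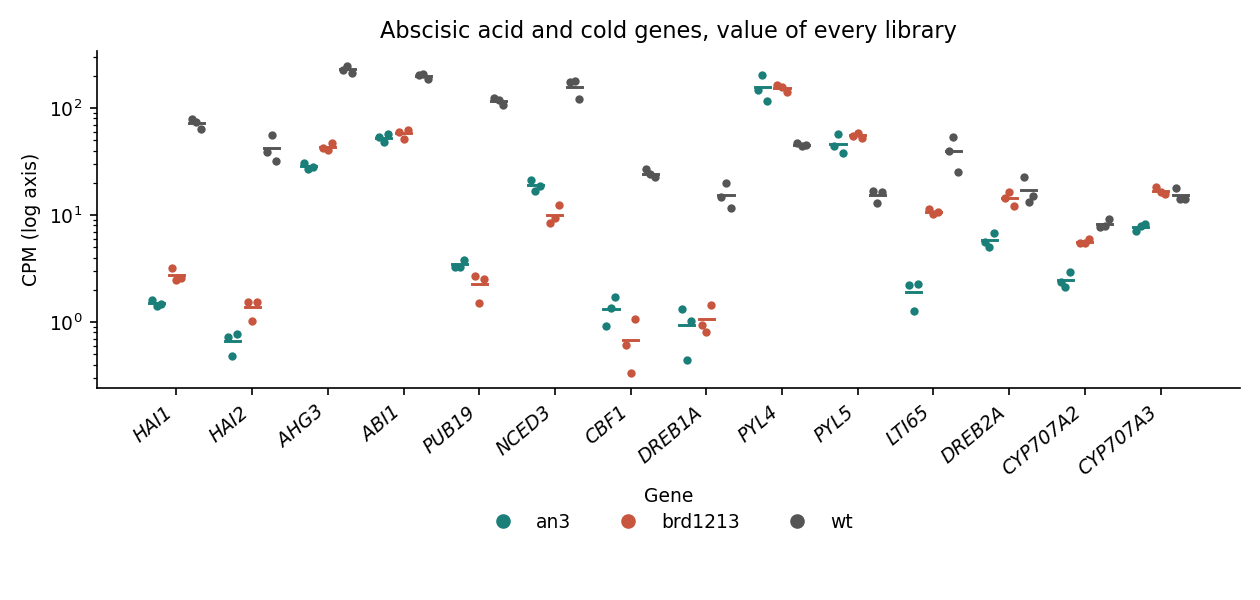
CPM of every library (log axis) for 14 abscisic acid and cold genes in an3, brd1213 and wt, with bars at the means. From HAI1 to DREB1A both mutants lie well below wt, PYL4 and PYL5 lie above wt in both, and from LTI65 to CYP707A3 the an3 libraries lie below those of brd1213.

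Heat shock genes rose in brd1213 and, in the main, not in an3. Heat shock factors are transcription factors that switch on chaperones, the proteins that refold or hold damaged proteins. Of 14 genes tested, 7 were lower in an3 than in brd1213 and none higher (50% called), and that count was 7 or 8 with any of the 6 libraries left out. Relative to wt, 9 of the 14 rose in brd1213 (64.3%), and 1, HSFA7A, rose in an3 (7.14%), a call that was lost without an3 replicate 2 or 3 or without wt replicate 1 or 2 (adjusted p between 0.09182 and 0.1424). The median difference over the 14 genes was -1.77 log2 between the mutants, beside 0.005 over all genes.

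HSFA2, a factor that sustains the heat response, had 2.1, 1.76 and 1.63 CPM in an3, 17.1, 33.7 and 15.1 CPM in brd1213 and 2.38, 2.12 and 3.14 CPM in wt. The an3 libraries lay slightly below those of wt without a call, and all 3 brd1213 libraries lay above both (an3 minus brd1213 -3.47 ± 0.34 SE, limma adjusted p = 3.097e-08). HSP101, a disaggregase needed for acquired heat tolerance, had 14.7, 13.8 and 12.9 CPM in an3, 51.8, 70.4 and 43.9 CPM in brd1213 and 12.9, 11.4 and 12.4 CPM in wt. A cytosolic HSP70 averaged 39.6 ± 2.78 CPM in an3, 218 ± 65.1 CPM in brd1213 and 33.3 ± 6.22 CPM in wt (SD, n = 3 each). HSP90.1, the heat-inducible HSP90, averaged 22.1 ± 1.12 CPM in an3, 114 ± 42.4 CPM in brd1213 and 17.7 ± 4.01 CPM in wt (SD, n = 3 each). The immunophilin ROF2 and the coactivator MBF1C, both heat-induced, differed by -2.20 ± 0.22 SE and -1.99 ± 0.20 SE (limma adjusted p = 3.097e-08 and 3.118e-08). Not every heat gene moved: HSFB1, a repressor class factor, had 59.7, 55.7 and 53.6 CPM in an3, 59, 74.1 and 64.1 CPM in brd1213 and 62.6, 50.9 and 76 CPM in wt. HSFB2A overlapped between the mutants, with a difference of -0.01 log2 (95% interval -0.32 to 0.29), and its libraries lay below those of wt in both without a call.

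The brd1213 library highest in heat shock genes, replicate 2, was also the library with the most seed storage RNA. The 6 embryo and seed markers tested summed to 0.397 to 0.572 CPM in an3, 2.57 to 23.6 CPM in brd1213 and 1.26 to 1.44 CPM in wt, and CRA1 and CRU3, both seed storage proteins, had 10.9 and 10.6 CPM in brd1213 replicate 2. OLEO1, an oil body protein, was at 0 in the an3 libraries, which at 3 counts a library allows up to 0.13 CPM, counting error only. Without brd1213 replicate 2, HSFA2 differed by -3.12 and HSP101 by -1.79 log2 between the mutants (limma adjusted p = 1.269e-06 and 1.873e-05). In every brd1213 library the seed marker sum lay above that of every an3 and wt library. The part of these transcripts in the heat shock result was not tested. In brip12 HSFA2 averaged 11.7 CPM and HSP101 37.9 CPM, and in brm 9.09 and 24.3 CPM. Higher means were not limited to these mutants. HSP70 averaged 119 CPM in sys123 and in pms2ab, 101 CPM in swi3d and 74 CPM in brm, against 33.3 CPM in wt. Of the 9 other mutants, 0 had an HSP70 mean below wt, and 2 had one below wt for HSFA2 and for HSP101.

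Cell wall growth genes were more often raised than lowered in both mutants, and 10 of 22 were lower in an3 than in brd1213. The list holds EXORDIUM family genes, which promote growth under brassinosteroid, XTH enzymes, which cut and rejoin xyloglucan, expansins, which loosen walls, and FLA wall proteins. Of 22 genes tested, 10 rose and 3 fell in an3 relative to wt (59.1% called), and 12 rose and 2 fell in brd1213 (63.6%). Between the mutants 10 were lower and 2 higher in an3 (54.5%), with a median of -0.46 log2. Some of these calls depended on single libraries. XTH24 lost its call without any library but an3 replicate 2. FLA13 and XTH19 lost theirs without an3 replicate 1 or 3 or brd1213 replicate 1 or 2. EXPA8, higher in an3, lost its call without an3 replicate 3 or brd1213 replicate 2. XTH16 was newly called lower without an3 replicate 2 or brd1213 replicate 3.

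EXO had 105, 136 and 156 CPM in an3, 626, 507 and 466 CPM in brd1213 and 48.6, 34.3 and 33.9 CPM in wt. The 3 genotypes formed separate steps: an3 lay above wt by 1.76 ± 0.28 SE log2 and brd1213 by 3.78 ± 0.28, and an3 lay below brd1213 by 2.02 log2 (log2 difference -2.02 ± 0.28 SE, limma adjusted p = 7.984e-06). PHI-1, of the same family, had 15, 12.6 and 23.8 CPM in an3, 105, 92.6 and 76.5 CPM in brd1213 and 9.63, 3.88 and 2.97 CPM in wt. TCH4, an XTH enzyme known for its response to touch, had 136, 152 and 270 CPM in an3, 621, 532 and 477 CPM in brd1213 and 82.7, 50.6 and 46.4 CPM in wt. XTH15 was closer to wt in an3, with 42.3, 30.6 and 33.3 CPM, against 156, 147 and 126 CPM in brd1213 and 19.7, 21.5 and 26.7 CPM in wt. Its rise in an3 was small (0.64 ± 0.20 SE, limma adjusted p = 0.03797) and was not called without an3 replicate 1 or 3 or wt replicate 1 or 2 (adjusted p between 0.07099 and 0.182). Higher means of EXO, PHI-1 and TCH4 were not particular to the pair. EXO and PHI-1 had a mean below wt in 0 of the 9 other mutants, and TCH4 in 1. EXO ranged there from 61.9 CPM in syd to 686 CPM in brip12. XTH15, by contrast, had a mean below wt in 7 of the 9.

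Some wall genes did not follow that order. FLA2, FLA9 and XTH4 rose in both mutants and were not called between them, although XTH4 lost its call in brd1213 without brd1213 replicate 1 or wt replicate 3 (adjusted p = 0.105 and 0.07659), and FLA9 averaged log2 rises of 1.26 ± 0.18 SE in an3 and 1.51 ± 0.18 SE in brd1213. XTH18 had 21.7, 26.2 and 16.7 CPM in an3, 71.8, 44.4 and 30.9 CPM in brd1213 and 42.7, 32.1 and 46.6 CPM in wt, so that an3 lay below both. XTH18 and XTH19 are close copies, so their counts may trade reads. EXPA11 had 28.6, 26.2 and 34.1 CPM in an3, 15.6, 18.5 and 13.2 CPM in brd1213 and 36.8, 35.7 and 33.9 CPM in wt, where the fall was in brd1213 and an3 was not called against wt (an3 minus brd1213 0.92 ± 0.18 SE, limma adjusted p = 0.0008886).

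**Figure D3:**
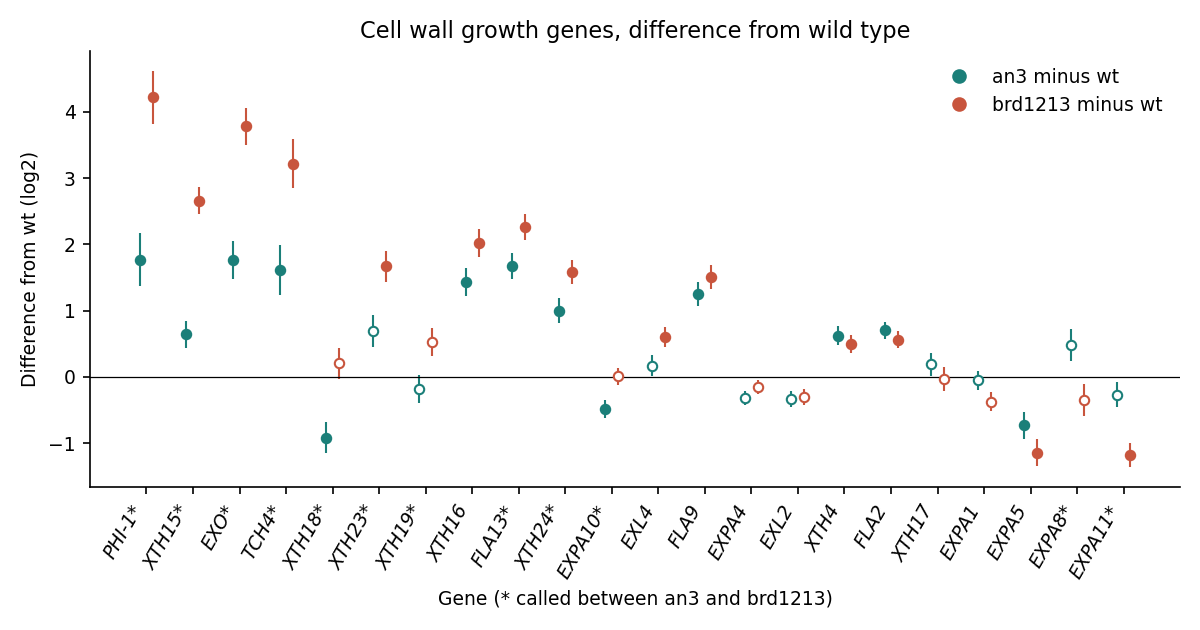
Log2 difference from wt (points, with SE bars) of the 22 cell wall growth genes in an3 and brd1213, ordered by the difference between the mutants; filled points were called against wt, and asterisks mark genes called between the mutants. At the left end PHI-1, EXO and TCH4 stand higher in brd1213 than in an3, and FLA2, FLA9 and XTH4 stand at like heights in both.

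Of the 12 GRF and GIF genes, 1 was higher and 2 were lower in an3 than in brd1213 (25% called). GRF5, which promotes leaf cell proliferation, had 4.03, 6.2 and 4.77 CPM in an3, 1.79, 1.52 and 2.97 CPM in brd1213 and 2.03, 4 and 3.61 CPM in wt (an3 minus brd1213 1.28 ± 0.32 SE, limma adjusted p = 0.005921). GRF2 had 9.42, 10.6 and 9.64 CPM in an3, 13, 13.8 and 13.7 CPM in brd1213 and 8, 7.56 and 8.01 CPM in wt, and the rise of brd1213 over wt was the larger (0.78 ± 0.11 SE, limma adjusted p = 5.116e-06, against 0.33 ± 0.11 SE and 0.05271 in an3). GRF3 rose by 0.55 log2 in an3 and 0.32 log2 in brd1213 and was not called between them (limma adjusted p = 0.07593), and its call in brd1213 was lost without wt replicate 3 (adjusted p = 0.05567). GRF9, at 0.597, 0.53 and 0.968 CPM in an3 against 1.31, 1.7 and 1.12 CPM in brd1213, lost its call without an3 replicate 1 or 2 or brd1213 replicate 2 (adjusted p = 0.05908, 0.07268 and 0.08507).

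HEC1, a bHLH gene of the gynoecium that AN3 is known to bind, gave the clearest difference among 4 such targets. It had 5.18, 7.57 and 6.24 CPM in an3, 21, 21.3 and 18.1 CPM in brd1213 and 4.4, 3.43 and 3.67 CPM in wt, and an3 lay 1.68 log2 below brd1213 (log2 difference -1.68 ± 0.22 SE, limma adjusted p = 2.573e-06). CRF2, a cytokinin response factor, averaged 12.7 ± 1.49 CPM in an3, 18.5 ± 1.73 CPM in brd1213 and 23.1 ± 1.51 CPM in wt (SD, n = 3 each). The fall of CRF2 in an3 was called against wt (-0.87, limma adjusted p = 0.0002889), and its call against brd1213 (-0.55, 0.01815) was lost without an3 replicate 3 or brd1213 replicate 1 (adjusted p = 0.1008 and 0.07392). COL5 was called higher in an3 (limma adjusted p = 0.04223), a call lost without any of 5 of the 6 libraries (adjusted p between 0.05423 and 0.1466), and ARR4 was not called.

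None of 22 cell cycle and replication genes was called between an3 and brd1213, and all 22 intervals lay within 1 log2 unit of 0, 20 of them within 0.5; 3 had an unadjusted limma p under 0.05, and edgeR called 0 and DESeq2 0. CYCB1;1, a mitotic cyclin, had 4.21, 4.1 and 4.61 CPM in an3, 3.84, 4.97 and 3.27 CPM in brd1213 and 4.73, 5.85 and 6.98 CPM in wt. CDC6, a replication licensing factor, was called higher in an3 when an3 replicate 2 or brd1213 replicate 1 was left out (adjusted p = 0.0411 and 0.0338). None of 18 photosynthesis genes was called between the mutants, and all 18 intervals lay within 1 log2 unit; 2 had an unadjusted limma p under 0.05, edgeR called 0, and DESeq2, the replicate block and the fit to the 2 genotypes each called 1.

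Leaf polarity and meristem genes moved in single members. Of 24 polarity and differentiation genes, 4 were higher and 5 lower in an3 than in brd1213 (37.5% called), falling to 2 and 3 without an3 replicate 3, brd1213 replicate 2 or brd1213 replicate 3. PHV, an adaxial HD-ZIP III factor, had 33.5, 32.7 and 31.4 CPM in an3, 50.7, 59.6 and 58.6 CPM in brd1213 and 32.7, 29.1 and 30.9 CPM in wt, so an3 overlapped wt. NGA1, a factor of leaf margin growth, had 10, 9.34 and 10.4 CPM in an3, against 20.4, 17.1 and 24.5 CPM in brd1213 and 12.5, 11 and 9.56 CPM in wt. YAB5, a YABBY factor of abaxial leaf identity, had 21.8, 26.7 and 27.5 CPM in an3, 16.3, 12.6 and 11.6 CPM in brd1213 and 22.8, 25.9 and 16.7 CPM in wt. The homeobox gene PNY, needed for stem and inflorescence growth, had 15.2, 14.3 and 17.1 CPM in an3, 6.37, 6.45 and 6.92 CPM in brd1213 and 14.3, 14.5 and 10.4 CPM in wt (an3 minus brd1213 1.23 ± 0.16 SE, limma adjusted p = 1.767e-06). In PHV, NGA1, YAB5 and PNY the call against wt was made in brd1213 and not in an3. TCP13 went the other way, with 3.94, 4.84 and 5.44 CPM in an3, 7.71, 6.83 and 7.69 CPM in brd1213 and 10.8, 9.9 and 7.64 CPM in wt; without an3 replicate 1 its call between the mutants was lost (adjusted p = 0.05814).

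Flowering genes held large differences at low levels. Of 20 tested, 2 were higher and 4 lower in an3 than in brd1213 (30% called). FLC, the vernalisation-controlled floral repressor, had 0.366, 0.309 and 0.439 CPM in an3, 2.79, 5.56 and 4.9 CPM in brd1213 and 0.271, 0.449 and 0.351 CPM in wt. The an3 libraries lay within the wt range, and brd1213 lay above both (an3 minus brd1213 -3.38 ± 0.52 SE, limma adjusted p = 2.923e-05). MAF5, an FLC relative, had 1.06, 2.46 and 1.48 CPM in an3, against 4.5, 6.88 and 4.64 CPM in brd1213 and 0.676, 0.943 and 0.741 CPM in wt. SEP3, a floral organ MADS gene, had 6.15, 15.7 and 6.1 CPM in an3, 26.2, 30 and 26.1 CPM in brd1213 and 5.71, 4.69 and 8.44 CPM in wt. SVP, a floral repressor that acts with FLC, had 81.8, 71.3 and 82.9 CPM in an3, 48.6, 54.3 and 53.6 CPM in brd1213 and 78.5, 80.3 and 64.5 CPM in wt. AGL24, a promoter of flowering, had 6, 7.93 and 9.11 CPM in an3, 0.846, 0.848 and 1.25 CPM in brd1213 and 2.39, 3.42 and 4.01 CPM in wt, and it was the one gene of the list called up in an3 and down in brd1213 relative to wt (limma adjusted p = 0.03504 and 0.00185). Its rise in an3 was lost without an3 replicate 2 or 3 or wt replicate 1 or 2 (adjusted p between 0.05335 and 0.1614).

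**Figure D4:**
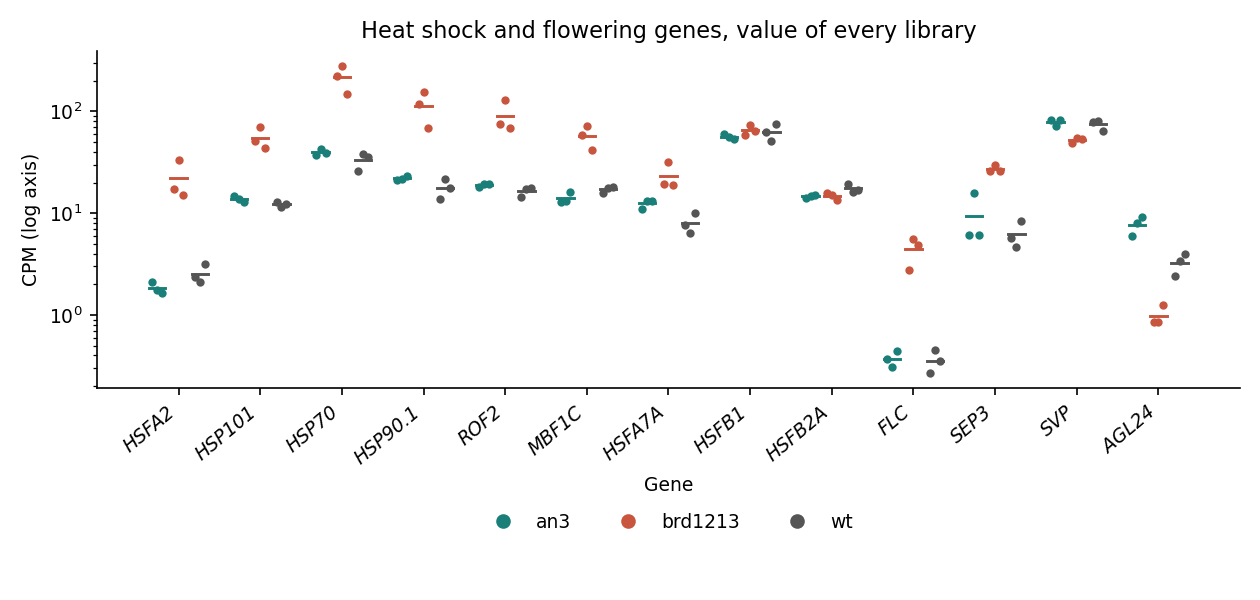
CPM of every library (log axis) for 9 heat shock and 4 flowering genes in an3, brd1213 and wt, with bars at the means. From HSFA2 to MBF1C, and in FLC and SEP3, brd1213 lies above an3 and wt; HSFB1 overlaps in all genotypes, HSFB2A overlaps between the mutants, and SVP and AGL24 lie lowest in brd1213.

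Several pigment and glucosinolate genes were higher in an3 than in brd1213. Of 16 anthocyanin and flavonoid genes, 7 were higher and none lower in an3 (43.8% called), and without brd1213 replicate 3 the count was 3. Without an3 replicate 2 the list members CHS, LDOX and F3'H lost their calls (limma adjusted p = 0.1171, 0.05455 and 0.08469). DFR, the first enzyme specific to anthocyanins and tannins, had 7.68, 8.06 and 7.04 CPM in an3, 1.27, 2.26 and 0.815 CPM in brd1213 and 11.2, 8.55 and 3.11 CPM in wt. GSTF12, which carries anthocyanin to the vacuole, had 2.29, 2.99 and 2.41 CPM in an3, 0.291, 1.19 and 0.429 CPM in brd1213 and 2.34, 2.38 and 1.95 CPM in wt. FLS1, the flavonol synthase, averaged 0.94 ± 0.20 SE log2 higher in an3 (limma adjusted p = 0.001315). Of 16 glucosinolate genes, 6 were higher and none lower in an3 (37.5%). CYP79F1, which starts the aliphatic core pathway, had 41.1, 41 and 59 CPM in an3, 25, 19.8 and 23.3 CPM in brd1213 and 52.6, 47.2 and 50.1 CPM in wt (an3 minus brd1213 1.03 ± 0.23 SE, limma adjusted p = 0.002017). BCAT4, the first step of methionine chain elongation, had 84.9, 85.2 and 87.6 CPM in an3, against 47.8, 49.7 and 59.8 CPM in brd1213 and 85, 87.4 and 108 CPM in wt. Relative to wt, 8 glucosinolate genes fell in brd1213 (50% called) and 2, MYB34 and MYB122, fell in an3 (12.5%), or 1 without an3 replicate 2, wt replicate 1 or wt replicate 3. The call of MYB122 was lost without any of these or an3 replicate 3 (adjusted p between 0.06261 and 0.1434).

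Of 16 clock genes tested, 5 were higher and 3 lower in an3 than in brd1213 (50% called), but the total of 8 fell to between 3 and 5 when any library other than an3 replicate 2 was left out. LHY, a morning gene, had 3.16, 3.17 and 3.67 CPM in an3, 1.46, 1.57 and 2.15 CPM in brd1213 and 6.74, 5.09 and 6.49 CPM in wt, so both mutants lay below wt and brd1213 lay lower (an3 minus brd1213 0.95 ± 0.23 SE, limma adjusted p = 0.004597). CCA1, its partner, had 11.8, 11.5 and 16.2 CPM in an3, 7.35, 7.09 and 8.55 CPM in brd1213 and 47.9, 38.6 and 44.3 CPM in wt, and its call between the mutants was lost without an3 replicate 3 or brd1213 replicate 1 or 2 (adjusted p = 0.1565, 0.07213 and 0.1018). TOC1, an evening gene, had 62.2, 54.3 and 63.6 CPM in an3, 81.7, 79.9 and 89.8 CPM in brd1213 and 84.5, 70.2 and 69.4 CPM in wt. The labels do not give the time of day of harvest.

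Of 21 jasmonate genes, 9 fell and 2 rose in an3 relative to wt (52.4% called), 10 fell and 1 rose in brd1213 (52.4%), and between the mutants 2 were higher and 1 lower in an3 (14.3%, near the 15.1% over all genes); without brd1213 replicate 2 the falls in brd1213 numbered 6, and without an3 replicate 1 the calls between the mutants numbered 1. With libraries scaled by their totals, 2 were higher and 3 lower. JAZ1, a repressor induced by the hormone, had 27.7, 35.8 and 31.6 CPM in an3, 45.3, 28.7 and 32.1 CPM in brd1213 and 156, 90.8 and 124 CPM in wt. ORA59, an ERF factor of the ethylene branch, rose in both, with 7.64, 7.35 and 9.07 CPM in an3, 9.04, 10.5 and 11.5 CPM in brd1213 and 1.35, 1.17 and 1.69 CPM in wt. PDF1.2, a defensin gene that ORA59 is known to activate, had 14.8, 2.48 and 7.24 CPM in an3, 0.37, 0.169 and 0.215 CPM in brd1213 and 0.0945, 1.38 and 0 CPM in wt. The lowest an3 library still lay above the highest of brd1213 and wt, it has close copies in the genome, and its rise over wt missed the threshold in the fit to an3 and wt alone (4.99 log2, limma adjusted p = 0.06579). Of 16 salicylic acid genes, 3 were higher and 1 lower in an3 than in brd1213 (25%). ICS1, the synthesis enzyme, had 16.5, 17.9 and 16.5 CPM in an3, 8.43, 9.85 and 8.73 CPM in brd1213 and 15.6, 17.1 and 13.3 CPM in wt, and PAD4, a regulator of basal resistance, differed in the same direction (0.71 ± 0.14 SE, limma adjusted p = 0.0007966).

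Of 18 gibberellin genes, 1 was higher and 3 were lower in an3 (22.2%). GA2OX2, which inactivates gibberellin, had 4.57, 5.5 and 3.42 CPM in an3, 13.7, 9.8 and 10.7 CPM in brd1213 and 12, 13.3 and 10.9 CPM in wt, and GA2OX6 averaged a difference of -1.27 ± 0.23 SE between the mutants (limma adjusted p = 0.000316). GA20OX2, which makes active gibberellin precursors, had 4.57, 4.4 and 3.56 CPM in an3, against 8.18, 7.77 and 7.69 CPM in brd1213 and 3.95, 4.41 and 2.99 CPM in wt. Of 22 auxin genes, 3 were higher and 3 lower in an3 (27.3%). YUC8, an auxin synthesis enzyme, had 19.8, 26.3 and 16 CPM in an3, 38.4, 34.4 and 43.2 CPM in brd1213 and 19.8, 15.7 and 15 CPM in wt. Of 16 cytokinin genes, 2 were lower and none higher in an3 (12.5% called, below the 15.1% over all genes). One was ARR7, a response regulator, with 12.4, 12 and 16 CPM in an3, 31, 21.3 and 30.1 CPM in brd1213 and 29.8, 21.8 and 29.3 CPM in wt, and the other was CRF5 (-0.78 ± 0.19 SE, limma adjusted p = 0.005865). In GA2OX2, ARR7 and CRF5 brd1213 overlapped wt and an3 lay below both.

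**Figure D5:**
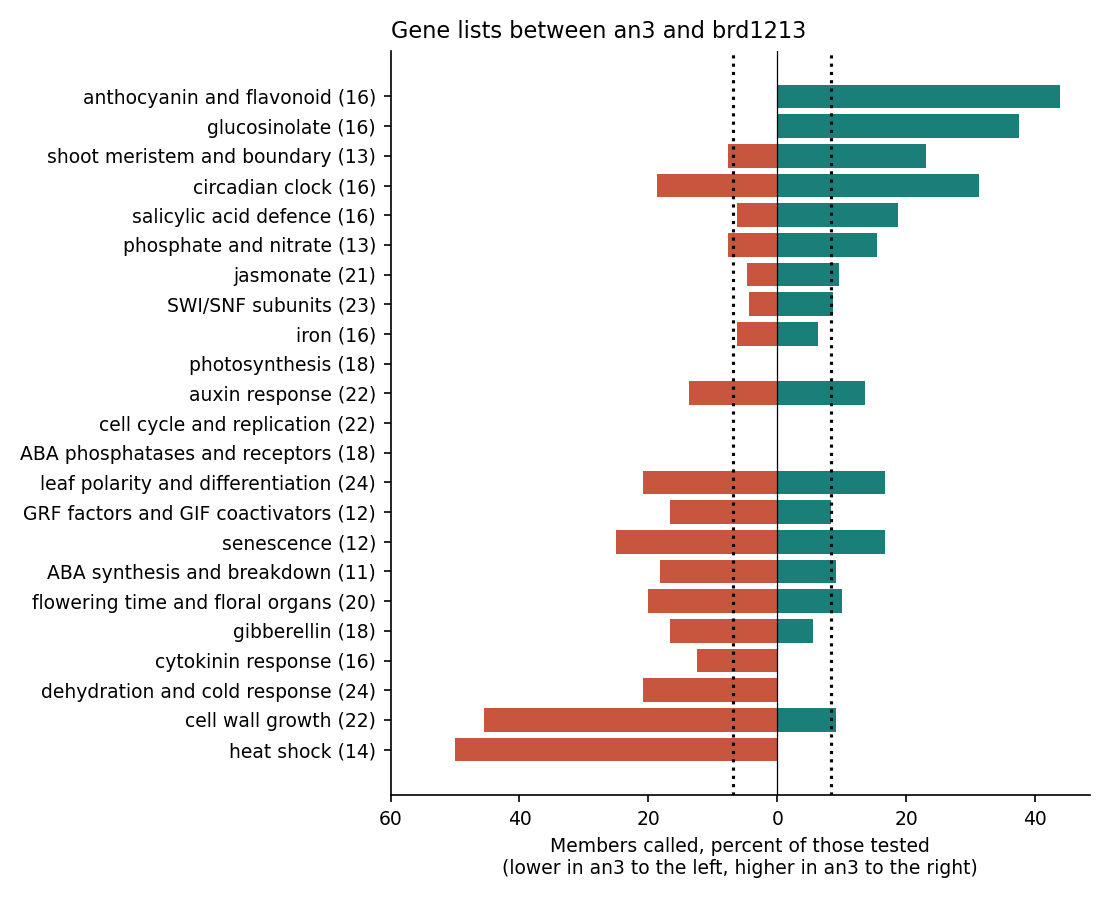
Percent of the tested members of each list with at least 10 tested genes (number in brackets) that were called lower (left) or higher (right) in an3 than in brd1213; dotted lines mark the shares over all genes tested, 6.82% lower and 8.28% higher. Heat shock and cell wall growth reach furthest to the left, anthocyanin and glucosinolate furthest to the right, and cell cycle, photosynthesis and the abscisic acid phosphatases and receptors have no bar.

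Of 12 senescence genes, 2 were higher and 3 lower in an3, with 1 lower without an3 replicate 1 or brd1213 replicate 2. NAP, a NAC factor that promotes leaf senescence, had 14.1, 13 and 20.5 CPM in an3, 3.98, 3.73 and 5.5 CPM in brd1213 and 35.2, 42.3 and 29.6 CPM in wt, so it fell in both and further in brd1213 (an3 minus brd1213 1.83 ± 0.25 SE, limma adjusted p = 4.411e-06). Of 13 shoot meristem genes, 3 were higher and 1 lower, and without an3 replicate 3 these were 1 and 1. Iron genes gave 1 higher and 1 lower of 16 (12.5% called, below the 15.1% over all genes), 1 higher and none lower without brd1213 replicate 2, and 3 higher and 1 lower in the fit to the 2 genotypes alone, and phosphate and nitrate genes gave 2 higher and 1 lower of 13, or 3 and 2 without brd1213 replicate 1.

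Genes outside these lists with the largest differences between the mutants included DYW1, HOL2, GLN1;4, CYP81D11 and GPT2. DYW1, a chloroplast RNA editing factor, had 13.4, 10.9 and 17.9 CPM in an3, 2.53, 2.42 and 3.05 CPM in brd1213 and 14.3, 13.9 and 11.3 CPM in wt, with an3 overlapping wt (an3 minus brd1213 2.36 ± 0.18 SE, limma adjusted p = 2.647e-10). HOL2, a methyltransferase, had 11.6, 10.2 and 10.2 CPM in an3, 2.34, 2.16 and 3.01 CPM in brd1213 and 12.9, 10.9 and 9.4 CPM in wt. GLN1;4, a cytosolic glutamine synthetase, differed through an3, with 7.41, 9.2 and 7.77 CPM in an3, 2.01, 1.91 and 2.28 CPM in brd1213 and 2.03, 2.25 and 3.11 CPM in wt. CYP81D11, a cytochrome P450 induced by foreign compounds, averaged 8.78 ± 1.11 CPM in an3, 72 ± 14.5 CPM in brd1213 and 15.3 ± 1.87 CPM in wt (SD, n = 3 each; an3 minus brd1213 -3.02 ± 0.27 SE, limma adjusted p = 5.294e-09). GPT2, a plastid glucose 6-phosphate carrier, had 1.34, 4.22 and 1.12 CPM in an3, 12.2, 21.2 and 6.44 CPM in brd1213 and 2.88, 4.58 and 3.24 CPM in wt. The same rule named ICL, ARD3, MRU1 and PSK2 as higher in an3 and SWEET4, PS2 and DIP2 as lower. PS2 lost its call without an3 replicate 3 or brd1213 replicate 2 (adjusted p = 0.05327 and 0.07421), and DIP2, with means of 0.155 CPM in an3 and 0.724 CPM in brd1213, lost it without an3 replicate 2 or brd1213 replicate 1 or 3 (adjusted p = 0.1539, 0.101 and 0.06824).

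Of the largest changes from wt, several were shared. DIN10, a sugar-starvation gene, had 1180, 980 and 1260 CPM in an3, 1040, 951 and 959 CPM in brd1213 and 358, 350 and 214 CPM in wt, and the 95% interval between the mutants ran from -0.15 to 0.57 log2. CYP71B22, a cytochrome P450, had 16.3, 29.7 and 22 CPM in an3, 28.6, 15.7 and 20.9 CPM in brd1213 and 4.46, 6.83 and 5.27 CPM in wt. OFP16 and SRO4 also rose in both relative to wt, and neither was called between the mutants (limma adjusted p = 0.1576 and 0.2526); OFP16 was in the fit to the 2 genotypes alone (0.03844), and SRO4 lost its call in brd1213 without brd1213 replicate 1 or 3 or wt replicate 1 or 3 (adjusted p between 0.07028 and 0.1135). CYP735A2, which makes trans-zeatin, rose in an3 and was not called in brd1213, with 13.3, 17.7 and 13.6 CPM in an3, 6.25, 4.71 and 4.56 CPM in brd1213 and 3.46, 3.07 and 5.31 CPM in wt (an3 minus brd1213 1.52 ± 0.30 SE, limma adjusted p = 0.0006187). EDL3, an F-box gene of abscisic acid signalling, fell in both, to 0.353 CPM in an3 and 0.601 CPM in brd1213, against 10 CPM in wt.

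Markers of single tissues were read because a seedling library mixes many cell types; in such samples fewer cells of a type and less RNA per cell cannot be told apart. Root markers summed to 198 to 243 CPM in an3, 175 to 183 CPM in brd1213 and 195 to 236 CPM in wt, and 1 of 8, PHO1, was called (higher in an3), or 2 without an3 replicate 3. Guard cell markers summed to 152 to 165 CPM in an3, 91.4 to 124 CPM in brd1213 and 91.5 to 136 CPM in wt. Most of that sum was 1 gene, the potassium channel KAT1, with 116, 116 and 122 CPM in an3, 70.2, 53.4 and 76.7 CPM in brd1213 and 80.3, 90.5 and 62.7 CPM in wt. The median difference between the mutants over the 8 markers was -0.12 log2, so the sum does not stand for the list. EPF2 was the other of 8 guard cell markers called, lower in an3, and its call was lost without an3 replicate 1 or 3 or brd1213 replicate 1 or 3. Of 6 root hair markers limma called 0 (0 at an unadjusted p under 0.05), edgeR 0 and DESeq2 0. Of 6 trichome markers 1 was called, TRY, lower in an3. With genes kept only at 1 CPM or more in 3 libraries, 4 trichome markers were tested and 0 called. Of 8 vascular markers 1 was called, APL, lower in an3. APL was not called without brd1213 replicate 3, and without brd1213 replicate 1, 2 other vascular markers were higher. The shares called were 12.5% of root, 25% of guard cell, 16.7% of trichome and 12.5% of vascular markers, beside 15.1% over all genes. Apart from the guard cell list, where 2 of 8 were called, these shares lie near that over all genes. The part of tissue make-up in the gene results was not tested.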

How the data were processed

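Per the labels' protocols, total RNA from seedlings was sequenced as single 50-bp reads on a BGISEQ500. Per the submitters' processing notes, HISAT2 and edgeR were used with genome TAIR10. Versions, annotation, strand and counting method were not stated there. The deposited values are a normalized signal, made by the authors, in 11 tables that repeat the same wt columns; the 66 columns hold 36 distinct libraries of 32548 genes. They have the form of edgeR pseudo-counts at a common library size of 23089153 reads: inverting that step at a fitted dispersion of 0.01268 gave whole reads for 100% of 1171728 values (tolerance 0.001). CPM here is the deposited value scaled to 1e6 reads of that size.

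Because the values are normalized, limma (3.58.1, R 4.3.3) with trend was run on log2(value + 1) with 1 coefficient for each genotype in a joint model of the 36 libraries; the 23297 genes averaging 1 or more were kept, and p-values were Benjamini-Hochberg adjusted within a contrast. edgeR 4.0.16 and DESeq2 1.42.0 on the recovered reads were alternatives, and edgeR called 3437 genes between an3 and brd1213, DESeq2 3659. Other alternatives changed scaling, filter, pseudocount and the libraries fitted, and left out each library in turn.

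Gene symbols came from the RefSeq table for TAIR10.1; names it does not list for a locus (BRD1, BRD2, BRD13, BRIP1, BRIP2 and a few others) came from general knowledge. The members, lists and tests were chosen with earlier results of these data known. Genes outside the lists were named by size of change: the 12 largest differences each way between an3 and brd1213, the 8 largest each way of each mutant relative to wt, and up to 4 each way among genes called in opposite directions relative to wt, all called, with libraries that did not overlap, an average log2 CPM from 1 upward and a gene symbol.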

Additional observations from a re-analysis of the deposited data

Results flagged for a closer look

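Among the genes called in opposite directions in the mutants relative to wt, 7 met the rule for named genes, which takes up to 4 each way and is not a count of all such genes. Because the rule also asked for a call between the mutants, the differences between them are given as a description. AGL24, GulLO2, SAUR68 and BGAL2 were higher in an3 and lower in brd1213 than in wt, and differed between the mutants by 2.92, 1.63, 1.3 and 1.25 log2. GulLO2, an enzyme of the gulonolactone oxidase family, had 27, 31.6 and 33.5 CPM in an3, 13.1, 8.44 and 8.64 CPM in brd1213 and 13.2, 18.4 and 23.9 CPM in wt. BGAL2, a beta-galactosidase of the cell wall, had 111, 125 and 136 CPM in an3, 58.2, 44.7 and 53.2 CPM in brd1213 and 82.7, 95.5 and 63 CPM in wt. In both genes an3 lay above every wt library and brd1213 below every one of them.

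NRT1.7, KUP11 and ACA10, all transporters, were lower in an3 and higher in brd1213 than in wt, and differed by -1.21, -0.94 and -0.54 log2. NRT1.7, which moves nitrate out of old leaves, had 36.3, 48.5 and 34.7 CPM in an3, 103, 80.9 and 90.2 CPM in brd1213 and 57.2, 69.4 and 53.7 CPM in wt. Each of the 14 calls against wt was lost under at least 1 alternative, except that of AGL24 in brd1213.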

How the results depend on the processing

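Counts of genes called between an3 and brd1213 ranged from 2342 to 3237 with 1 library left out (1309 to 1846 higher, 1024 to 1438 lower), an3 minus wt from 1764 to 2808 and brd1213 minus wt from 3647 to 4112, against 3518, 2509 and 4621 as reported. Fitting only the 2 genotypes compared gave 1039 lower calls between the mutants, 1380 for an3 minus wt and 2546 for brd1213 minus wt; fewer libraries then estimate the spread. Where a replicate was left out, the remaining fit pooled the spread of all genotypes. Of 9021 combinations of a named gene, contrast and alternative, 8549 stayed on the same side of the threshold, 411 fell short of it and 61 newly passed it. Among results called in the fit as reported or in the alternative, 0 reversed direction. The direction of results called in neither was not compared, and 3 more combinations gave no value. MAF5 was not called between the mutants with a pseudocount of 0.1, nor DIP2 with a pseudocount of 5 or by edgeR (adjusted p = 0.08135, 0.07901 and 0.1371); the cause was not tested. Replicate numbers did not pair the libraries: the correlation of same-numbered deviations between an3 and brd1213 was -0.076, 0.0631 and 0.0793. With the replicate block 3564, 2542 and 4678 genes were called in the 3 contrasts. Genes under about 1 CPM rest on some 23.1 reads or fewer a library and have wide intervals.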

Other observations

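Small auxin-induced genes were looked at after their values were seen, because SAUR23 stood among the largest differences. The RefSeq annotation marks 78 loci as SAUR-like, of which 68 were tested. Between the mutants 27 were higher and 5 lower in an3, with a median of 0.45 log2, beside 8.28% and 6.82% over all genes. Relative to wt, 18 rose and 1 fell in an3, and 10 rose and 19 fell in brd1213. SAUR23 had 24.4, 21.7 and 21.2 CPM in an3, 4.93, 6.07 and 6.92 CPM in brd1213 and 21.9, 26.7 and 15 CPM in wt. SAUR36 went the other way, with 5.99, 6.6 and 6.34 CPM in an3, 12.5, 14.5 and 14.5 CPM in brd1213 and 4.17, 2.66 and 3.96 CPM in wt. SAUR19 to SAUR24 are near-identical neighbours that may share reads, so they are not separate observations.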
